A study of Homo sapiens with 4 samples.

Results

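The genes described here are 10 regulators of pre-mRNA splicing in LNCaP cells, out of 60675 genes counted. They are the CDC-like kinases CLK1, CLK2, CLK3 and CLK4, the SR protein kinase SRPK1, the LUC7-like genes LUC7L, LUC7L2 and LUC7L3, and the TRA2 genes TRA2A and TRA2B. They were listed by symbol as genes known for detained introns or for the choice of 5′ splice sites. The genes were also chosen by their measured change, since the fold changes between CPI-455 and vehicle were known when the list was made, and that comparison is the only one these libraries allow. The values of the 10 genes are therefore a description and carry no test of their own. LNCaP, a human cell line from a lymph node metastasis of a prostate carcinoma, responds to androgen. In all 4 libraries the cells had received the synthetic androgen R1881 at 1 nM for 72 h. In 2 of them the cells received vehicle (DMSO) with the androgen, and in the other 2 they received 50 µM CPI-455, an inhibitor of the KDM5 histone demethylases, in DMSO. The cells were grown in hormone-depleted medium, one cell line and one dose were used, and no library without R1881 was analysed here. The question was how inhibition of KDM5 alters gene expression in androgen-treated cells.

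Introns are removed by the spliceosome after the U1 small nuclear ribonucleoprotein (snRNP) has paired with the 5′ splice site. SR proteins, which carry domains rich in arginine and serine, bind exons and help to recruit this machinery. SRPK1 phosphorylates SR proteins mainly in the cytoplasm, which promotes their import into the nucleus, and the CLK kinases phosphorylate them further in the nucleus. LUC7-like proteins associate with the U1 snRNP and affect which 5′ splice sites are used, and TRA2 proteins bind GAA-rich exonic enhancers. Many genes of this machinery control their own amount through introns that are kept in nuclear transcripts (detained introns) or through poison exons that carry an early stop codon. The CLK genes are known for detained introns on both sides of exon 4, an exon whose skipping removes the kinase domain from the reading frame.

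The sequences of exon 4 were read from the GRCh38 genome with GENCODE release 44 exons, since the introns beside it are the part of the CLK genes for which detained introns are known. They are shown 5′ to 3′ on the strand of the gene, exon bases in lower case and the first 6 bases of intron 4 in capitals. They lie at chr2:200860125-200860215 (minus strand, CLK1), chr1:155268708-155268795 (minus strand, CLK2), chr15:74622120-74622216 (plus strand, CLK3) and chr5:178617344-178617434 (minus strand, CLK4).
CLK1: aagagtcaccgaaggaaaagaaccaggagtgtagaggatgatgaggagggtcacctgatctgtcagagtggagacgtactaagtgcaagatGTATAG
CLK2: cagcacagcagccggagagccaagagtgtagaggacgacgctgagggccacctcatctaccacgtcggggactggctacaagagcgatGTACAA
CLK3: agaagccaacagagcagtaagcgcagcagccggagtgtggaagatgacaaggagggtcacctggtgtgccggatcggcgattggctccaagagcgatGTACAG
CLK4: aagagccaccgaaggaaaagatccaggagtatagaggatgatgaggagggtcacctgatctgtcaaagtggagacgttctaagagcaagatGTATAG
The exons are 91, 88, 97 and 91 bases long. Each leaves a remainder of 1 base when divided by 3, so that skipping shifts the reading frame in all 4 genes. CLK1 and CLK4 share 93.4% of their aligned exon 4 bases, and the other pairs share 62.6% to 66.3%.

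The 5′ splice site of intron 4 was weak by its letters in every CLK gene. Each 5′ splice site was compared over 9 positions, the last 3 bases of the exon in lower case and the first 6 of the intron in capitals, with the most frequent base at each position over the 189898 canonical introns of protein-coding genes that start with GT or GC.
Consensus: cagGTAAGT
CLK1 intron 4: gatGTATAG
CLK2 intron 4: gatGTACAA
CLK3 intron 4: gatGTACAG
CLK4 intron 4: gatGTATAG
Each of the 4 sites matched the consensus at 4 of 9 positions. Only 1.61% of all canonical introns had 4 or fewer matches. Of the 105 canonical introns of the 10 genes, 5 did, namely these 4 and intron 10 of SRPK1. The 105 sites as a whole matched at a mean of 6.33 positions, beside 6.38 for all genes. Matches with a consensus are a description of the letters and not a measure of splicing. Intron 3 of the CLK genes, on the other side of exon 4, had 5 to 6 matches. Introns 3 and 4 together span 1400 bases in CLK1, 1040 in CLK2, 2171 in CLK3 and 1516 in CLK4.

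These introns matter for reading the values, because the counts include them. The authors counted fragments on every base that any Ensembl release 83 transcript of the gene calls exonic, retained introns included. Introns 3 and 4 were counted over 100% of their length in all 4 CLK genes, as were 21 of the 105 introns of the 10 genes. The share of counted bases outside the canonical exons was 64.3% for CLK1, 41.3% for CLK2, 90.9% for CLK3 and 68.4% for CLK4. It was 35.0% for SRPK1, 76.8% for LUC7L, 57.9% for LUC7L2, 14.4% for LUC7L3, 49.2% for TRA2A and 76.0% for TRA2B. The median over 19573 protein-coding genes was 23.0%, so that 9 of the 10 genes were above it and LUC7L3 below it. Spliced and intron-containing transcripts of these genes cannot be told apart in the counts, and a level below is the sum of both. Per kilobase levels divide by all counted bases.

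**Figure D1:**
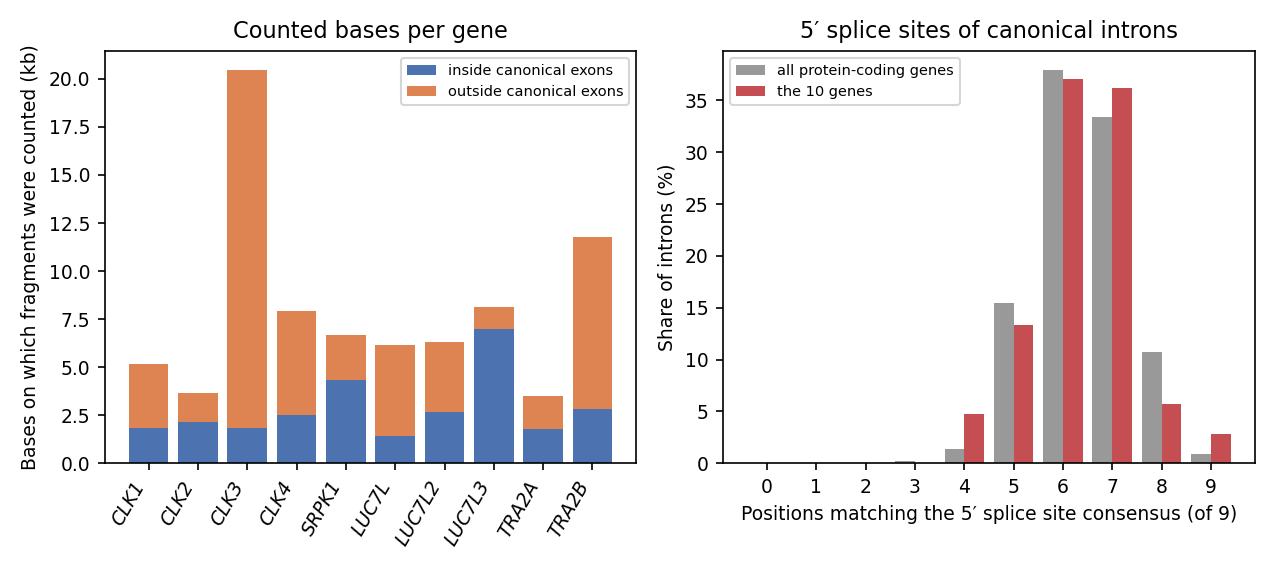
Left, bases on which fragments were counted for each of the 10 genes (kb), split into those inside and outside the canonical exons of GENCODE release 44. Right, share of canonical introns (%) by the number of 5′ splice site positions, of 9, that match the consensus, for all protein-coding genes (grey) and the 10 genes (red). CLK3 has 20443 counted bases, 90.9% of them outside its canonical exons, and the bar at 4 matches holds 4.76% of the introns of the 10 genes against 1.41% of all.

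The vehicle libraries held 19623553 and 20690819 counted fragments and the CPI-455 libraries 9522920 and 5401588, so the CPI-455 values rest on fewer fragments, although no member had under 295 in any library. Counts are given below as CPM, the usual share of a library scaled to its depth. They were normalized between libraries with TMM, a scaling that assumes that most genes do not change. In the fit used below, 62.6% of the genes tested differed at a false discovery rate below 0.05, so this assumption is doubtful here. Whether it holds was not tested directly, and that share itself rests on the scaling. Of 8 markers of luminal prostate cells, all were above 1 CPM in every library, with a summed level of 807 and 761 CPM with vehicle and 231 and 278 with CPI-455. Of 8 markers of other cell types, 1 was above 1 CPM in every library and KRT5 was at 0 in every library. The former was COL1A1, at 4.96 and 4.02 CPM with vehicle and 10.1 and 7.71 with CPI-455. The luminal marker EPCAM was below it in each library, at 4.06 and 3.52, then 3.14 and 6.73 CPM. The summed level of the markers of other cell types was 5.53 and 4.57 CPM with vehicle and 12.2 and 11.9 with CPI-455. Apart from COL1A1, none of them had counts in both CPI-455 libraries. COL1A2 had 0 and 15 counts there and KRT14 had 11 and 0, so different genes made up the 2 sums. The nuclear RNA MALAT1 took 0.114% and 0.0884% of the fragments with vehicle and 4.95% and 6.49% with CPI-455, NEAT1 stood at 98.6 and 68.8, then 222 and 294 CPM, and mitochondrially encoded genes took 2.43% and 1.91%, then 1.24% and 0.967%. The part of these shifts in the values of the 10 genes was not tested. The labels name the libraries as replicates and the p-values for other genes below measure only the spread between them.

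With CPI-455, LUC7L and LUC7L3 were several-fold higher than with vehicle, the 4 CLK kinases and TRA2A were higher by smaller amounts, and SRPK1 was lower. LUC7L2 and TRA2B stood slightly lower. A gene was called where edgeR's quasi-likelihood test gave a Benjamini-Hochberg false discovery rate (FDR) below 0.05 and the level differed by 2-fold or more. Of the 10 genes, 6 were called, beside 42.4% of the 17600 genes tested. They were CLK2, CLK3, CLK4, LUC7L and LUC7L3, higher, beside 21.0% of all genes, and SRPK1, lower, beside 21.3%. The change that made these calls was in view when the genes were chosen, so nothing is read from the counts. By FDR alone 9 of the 10 passed, beside 62.6% of all genes, and LUC7L2 did not. All 10 had groups that did not overlap, beside 81.9% of all genes. The median log2 fold change (CPI-455 over vehicle) was 0.99 over the 10 genes and -0.04 over all genes tested. The 2-fold line ran through the middle of the list: CLK2 at 1.03 and CLK4 at 1.01 lay just inside it and TRA2A at 0.97 just outside.

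**Figure D2:**
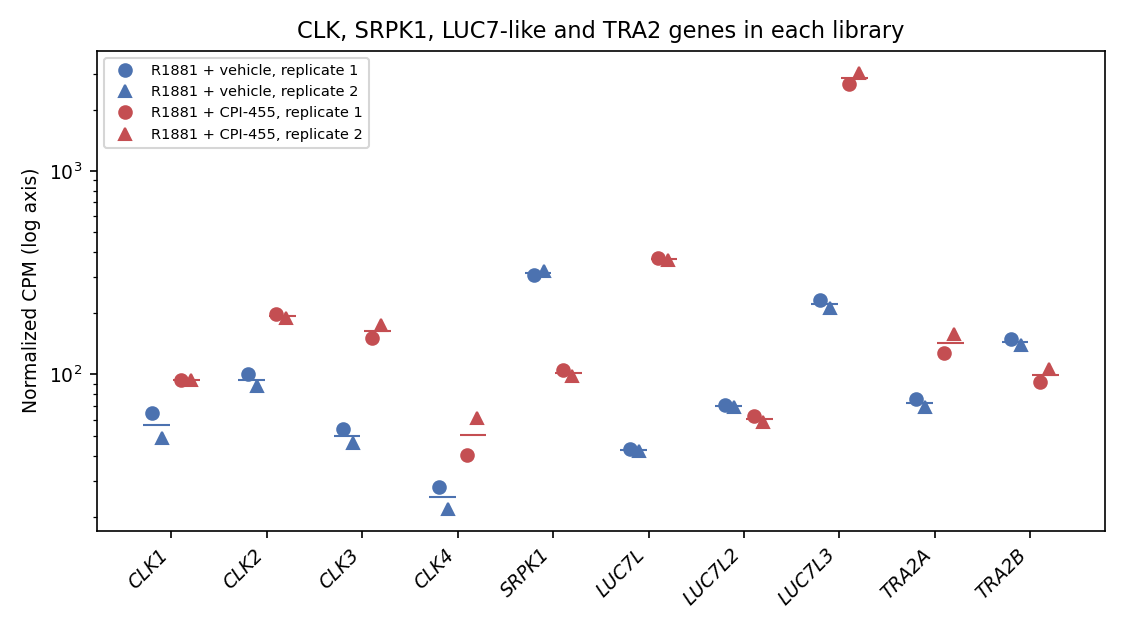
Normalized CPM (log axis) of the 10 genes in each library, vehicle in blue and CPI-455 in red, replicate 1 as circles and replicate 2 as triangles, with a line at the mean of each group. The red points of LUC7L3 (2670 and 3040 CPM) and LUC7L (374 and 363 CPM) lie far above the blue points, those of SRPK1 (105 and 98.7 CPM) lie below them, and those of LUC7L2 lie close to them.

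LUC7L3 (ENSG00000108848), also known as CROP, is an arginine- and serine-rich LUC7-like protein, and its gene lies at chr17:50719544-50756213 on the plus strand. The vehicle libraries held 4887 and 4628 counts of LUC7L3, and the smaller CPI-455 libraries 23762 and 15355. As CPM the vehicle libraries stood at 231 and 211 and the CPI-455 libraries at 2670 and 3040. The lower CPI-455 library was thus more than 10 times above the higher vehicle library. The mean was 221 ± 13.7 CPM with vehicle and 2850 ± 263 CPM with CPI-455 (SD, n = 2 each). This was a log2 fold change of 3.69 ± 0.12 (SE), or 12.9-fold. Among all genes tested, 97.1% had a lower log2 fold change. Per kilobase of counted exon, the LUC7L3 level was above that of 90.9% of the tested genes with vehicle and of 99.4% with CPI-455. Only 14.4% of its counted bases lay outside the canonical exons, the lowest share of the 10 genes. This is a share of bases and not of fragments, so it does not show which LUC7L3 transcripts were higher. LUC7L3 has 8 transcripts annotated for nonsense-mediated decay, the most of the 10 genes, and 3 retained-intron transcripts. Exons of its decay transcripts within introns 2 and 9 lie wholly inside the counted bases. Leaving out each library in turn gave log2 fold changes of 3.55 to 3.76.

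LUC7L (ENSG00000007392), at chr16:188969-229463 on the minus strand, showed the next largest difference. Its levels were 43.3 and 42.0 CPM with vehicle and 374 and 363 CPM with CPI-455, so replicates differed little and the groups lay far apart. The means were 42.6 ± 0.942 and 368 ± 8.32 CPM (SD, n = 2 each). The log2 fold change was 3.11 ± 0.12 (SE), or 8.64-fold, and 3.06 to 3.11 without one library. Its gene model differs from that of LUC7L3, since 76.8% of the bases counted for LUC7L lay outside the canonical exons.

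LUC7L2 (ENSG00000146963), at chr7:139340359-139423457 on the plus strand, did not share this difference. Its levels were 70.8 and 69.2 CPM with vehicle and 62.4 and 58.4 CPM with CPI-455. The CPI-455 libraries were both lower, by a log2 fold change of -0.21 ± 0.13 (SE), and LUC7L2 was the member that missed the FDR threshold. Its sign also depended on the processing, with 0.14 once a trend on gene length and GC content was removed. LUC7L2 shares 23.75% of its counted bases with other genes, 1377 of them with the readthrough gene FMC1-LUC7L2. Fragments there were assigned to no gene, and the readthrough gene itself held 2, 0, 0 and 1 counts, so the level of LUC7L2 is measured less surely than those of its relatives.

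The make-up of the LUC7-like family therefore differed between the groups, in the shares of LUC7L2 and LUC7L3. Their summed level was 334 ± 15.8 CPM with vehicle and 3280 ± 252 CPM with CPI-455 (SD, n = 2 each). Per kilobase of counted exon, LUC7L2 made up 24.1% and 25.1% of the family with vehicle and 2.48% and 2.10% with CPI-455. LUC7L3 made up 60.8% and 59.4% in the vehicle libraries, against 82.3% and 84.6% in the CPI-455 libraries. LUC7L held 15.3% ± 0.348 with vehicle and 14.3% ± 1.36 with CPI-455, a difference within the spread of the CPI-455 libraries. A share of a family rests on all its members, so the fall of the LUC7L2 share goes with the higher levels of the other genes.

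**Figure D3:**
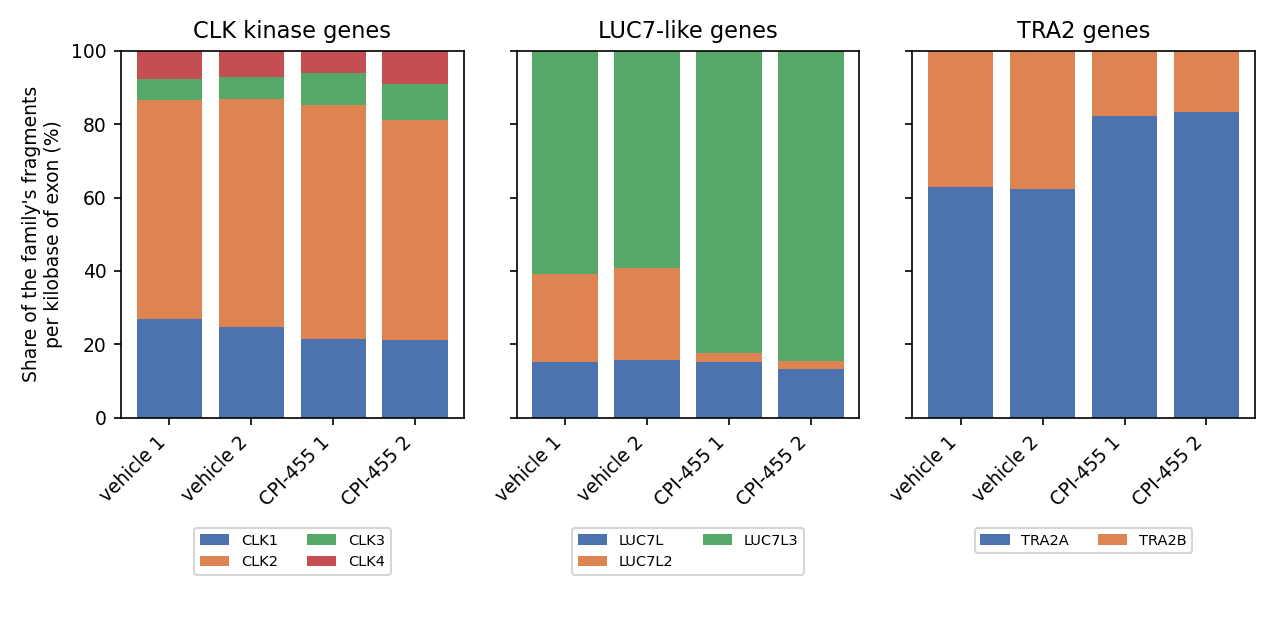
Share of each family's fragments per kilobase of counted exon (%) held by each gene, in each of the 4 libraries, for the CLK kinases, the LUC7-like genes and the TRA2 genes. LUC7L2 goes from 24.1% and 25.1% of the LUC7-like level with vehicle to 2.48% and 2.10% with CPI-455, TRA2A rises from 62.9% and 62.4% to 82.3% and 83.2% of the TRA2 level, and the CLK2 share is alike in all 4 libraries.

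Among the CLK kinases, which phosphorylate SR proteins in the nucleus, CLK3 showed the largest difference. CLK3 (ENSG00000179335), at chr15:74598500-74645414 on the plus strand, had 53.7 and 45.9 CPM with vehicle and 151 and 175 CPM with CPI-455. The CPI-455 libraries were both well above the vehicle libraries. The means were 49.8 ± 5.51 and 163 ± 17.4 CPM (SD, n = 2 each), and the log2 fold change was 1.71 ± 0.14 (SE), or 3.27-fold. CLK3 is also the kinase whose count rests least on canonical exons, since 90.9% of its 20443 counted bases lay outside them. It overlaps EDC3, a gene on the opposite strand with a role in mRNA decapping, by 701 bases. EDC3 itself was counted 2165 and 2426 times with vehicle and 293 and 135 times in the CPI-455 libraries. These are raw counts, not scaled to depth, and the smaller CPI-455 libraries account for part of the gap. Strand was not used in the counting, so fragments of either gene that reach only one annotation cannot be assigned to a strand.

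CLK2 (ENSG00000176444), at chr1:155262868-155278491 on the minus strand, had 101 and 87.5 CPM with vehicle and 198 and 189 CPM with CPI-455. Both CPI-455 libraries were above both vehicle libraries. The log2 fold change was 1.03 ± 0.12 (SE), or 2.05-fold. It was 0.91 without vehicle replicate 2 and 0.98 without CPI-455 replicate 1, where the call was lost, and at most 1.12 without another library. With the length and GC trend removed it was 0.85 and the call was lost as well. CLK2 is the only CLK gene without a retained-intron transcript in GENCODE release 44, although introns 3 and 4 were exonic in the annotation used for counting. Its processed pseudogene CLK2P1 on chromosome 7 had 0, 0, 5 and 0 counts.

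CLK4 (ENSG00000113240), at chr5:178602664-178630615 on the minus strand, was the member with the widest spread. Its levels were 27.9 and 21.9 CPM with vehicle and 40.3 and 61.1 CPM with CPI-455. The groups did not overlap, but the gap between the CPI-455 libraries was larger than the gap from the lower one to the vehicle libraries. The log2 fold change of 1.01 ± 0.22 (SE) became 0.65 without CPI-455 replicate 2, 1.28 without CPI-455 replicate 1 and 0.83 without vehicle replicate 2. The call of CLK4 at 2-fold was lost in the first and the last of these cases.

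CLK1 (ENSG00000013441), at chr2:200853009-200864744 on the minus strand, had 64.4 and 49.0 CPM with vehicle and 94.0 CPM in both CPI-455 libraries. The CPI-455 libraries agreed closely and the vehicle libraries did not. The log2 fold change was 0.73 ± 0.15 (SE), or 1.66-fold, and it was 0.52 without vehicle replicate 2 and 0.92 without vehicle replicate 1. CLK1 was thus higher in both CPI-455 libraries without reaching 2-fold, although it passed 2-fold, at 1.08, once a trend on gene length and GC content was removed. In GENCODE release 44 it has 8 retained-intron transcripts, as many as CLK3, and 4 of its 12 canonical introns are annotated as retained.

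The CLK genes together summed to 226 ± 30.4 CPM with vehicle and 501 ± 26.0 CPM with CPI-455. Per kilobase, CLK2 was the leading kinase in both groups, with 61.0% ± 1.74 of the CLK level with vehicle and 61.8% ± 2.70 with CPI-455. CLK1 made up 25.8% ± 1.58 with vehicle and 21.3% ± 0.272 with CPI-455, and CLK3 5.77% ± 0.124 and 9.35% ± 0.882. The share of CLK4 was 7.41% ± 0.286 and 7.49% ± 2.09. The shares of CLK2 and CLK4 thus differed by less than the spread between libraries, while in both CPI-455 libraries the CLK3 share was larger and the CLK1 share smaller than in the vehicle libraries. Of the sum of fragments, CLK3 held 22.1% ± 0.536 with vehicle and 32.5% ± 1.78 with CPI-455, and CLK1 25.0% ± 1.46 and 18.8% ± 0.984. Which of CLK1 and CLK3 is larger with CPI-455 thus depends on the unit.

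SRPK1 (ENSG00000096063), at chr6:35832966-35921342 on the minus strand, acts upstream of the CLK kinases on the same SR proteins and went the other way. The vehicle libraries held 6523 and 7069 counts of SRPK1 and the CPI-455 libraries 939 and 499. The levels were 308 and 323 CPM in the vehicle libraries and 105 and 98.7 CPM in the CPI-455 libraries, with close replicates in both groups. The means were 315 ± 10.5 and 102 ± 4.69 CPM (SD, n = 2 each), and the log2 fold change was -1.63 ± 0.11 (SE), or 3.09-fold lower. Only 12.2% of all genes tested had a lower log2 fold change. Leaving out each library gave -1.70 to -1.62. Per kilobase, SRPK1 stood at 47.1 ± 1.57 FPKM with vehicle beside 42.3 ± 5.58 FPKM for the sum of the 4 CLK genes. With CPI-455 it stood at 15.2 ± 0.701 FPKM beside a CLK sum of 85.2 ± 1.06 FPKM. Its relatives SRPK2 and SRPK3 were not lower. SRPK2 had 112 ± 2.19 CPM with vehicle and 169 ± 0.0285 with CPI-455 (log2 fold change 0.59). It passed the FDR threshold but did not reach 2-fold, so it was not called. SRPK3, best known from muscle, rose from 3.35 and 1.87 CPM to 16.7 and 12.1 CPM, with a log2 fold change of 2.47 and an FDR of 0.00028 by edgeR's quasi-likelihood test.

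**Figure D4:**
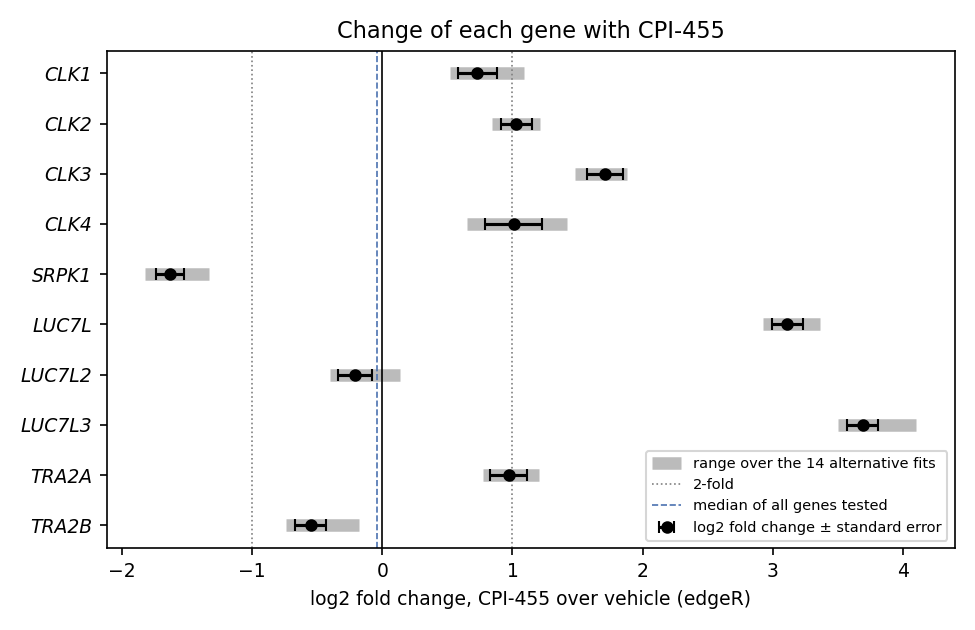
log2 fold change of each of the 10 genes, CPI-455 over vehicle, with its standard error (black), and the range over the 14 alternative fits (grey bars). Dotted lines mark 2-fold and the dashed line the median of all genes tested (-0.04). LUC7L3 and LUC7L lie above 2.92 and SRPK1 below -1.33 under every alternative, CLK1, CLK2, CLK4 and TRA2A have ranges that cross the 2-fold line, and the bar of LUC7L2 crosses 0.

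TRA2A and TRA2B encode paralogous proteins that bind the same kind of enhancer, and their levels stood on opposite sides of no change. TRA2A (ENSG00000164548), at chr7:23504780-23532041 on the minus strand, had 76.1 and 69.3 CPM with vehicle and 128 and 158 CPM with CPI-455. TRA2B (ENSG00000136527), at chr3:185915906-185938136 on the minus strand, had 150 and 140 CPM with vehicle and 92.3 and 107 CPM with CPI-455. In both genes the groups did not overlap. The log2 fold change was 0.97 ± 0.14 (SE) for TRA2A and -0.55 ± 0.12 (SE) for TRA2B, neither reaching 2-fold. The counted bases of TRA2B hold 2830 of its 4178 canonical exon bases, since the gene ends later in the newer annotation. The range without one library was 0.77 to 1.10 for TRA2A and -0.70 to -0.46 for TRA2B. With the length and GC trend removed, TRA2A was at 1.20 and TRA2B at only -0.18, so the size of the TRA2B difference depended on the processing. Their sum was 226 and 209 CPM in the vehicle libraries and 221 and 265 CPM in the CPI-455 libraries, and the groups overlapped. Their sum per kilobase was 34.4 and 31.6 FPKM with vehicle and 44.3 and 54.0 FPKM with CPI-455, without overlap, so the sums differ with the unit. Of the sum per kilobase, TRA2A held 62.6% ± 0.406 with vehicle and 82.7% ± 0.621 with CPI-455. Of the sum of fragments, it held 33.4% ± 0.386 and 58.9% ± 1.05. Its share was larger with CPI-455 in both units, but which TRA2 gene leads with vehicle depends on the unit.

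Both TRA2 genes carry an exon within intron 1 that is used in transcripts annotated for nonsense-mediated decay, and it lies wholly inside the counted bases. In TRA2B it is 276 bases long, at chr3:185931577-185931852, and in TRA2A 301 bases, at chr7:23522132-23522432. The exon of TRA2A also has a form of 79 bases that ends at an earlier 5′ splice site and is annotated only in transcripts for nonsense-mediated decay, while the 301-base form is also in protein-coding transcripts. The 5′ splice sites are shown with the last 3 exon bases in lower case and the first 6 intron bases in capitals, because exons of this kind govern how much full-length mRNA a TRA2 gene gives.
TRA2A intron 1 exon, 301 bases: tagGTTAAG
TRA2A intron 1 exon, 79 bases: aaaGTATTA
TRA2B intron 1 exon: taaGTAATT
They match the consensus at 5, 4 and 6 of 9 positions. Inclusion of these exons was not measured, since the counts hold 1 value per gene.

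The order of the levels per kilobase differed between the groups. It rests on the bases counted for each gene and is not the order of CPM. With vehicle, CLK3 with its 20443 counted bases came last per kilobase. Its 49.8 CPM were above those of LUC7L (42.6) and CLK4 (24.9). In FPKM, which is CPM divided by the kilobases counted, the vehicle order from the top was SRPK1 (47.1), LUC7L3 (27.1), CLK2 (25.7), TRA2A (20.7), TRA2B (12.3), LUC7L2 (11.1), CLK1 (11.0), LUC7L (6.90), CLK4 (3.14) and CLK3 (2.44). LUC7L3 was not separated from CLK2 in every library, nor LUC7L2 from CLK1. With CPI-455 the order was LUC7L3 (350.0), LUC7L (59.7), CLK2 (52.7), TRA2A (40.7), CLK1 (18.2), SRPK1 (15.2), LUC7L2 (9.56), TRA2B (8.47), CLK3 (7.97) and CLK4 (6.40). There TRA2B was not separated from CLK3, nor CLK3 from CLK4. LUC7L thus moved from position 8 to 2 and SRPK1 from position 1 to 6.

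Other genes of the pathway were followed in 4 lists of 79 entries and 70 genes, 9 of which stand on more than 1 list. These lists were also made with earlier results of these data known. Most genes named from them were picked for their call and the size of their change. Their FDRs, like that of SRPK3 above, are therefore a description and no independent test. Over the 70 genes, 21 genes were called higher and 9 genes lower. Of all genes tested, 21.0% were called higher and 21.3% lower, 42.4% in all. Of 18 other kinases and phosphatases that act on splicing factors, 3 were called higher, 7 lower and 8 were not called. The median log2 fold change was -0.63, and 55.6% were called, 16.7% higher and 38.9% lower. CDK12, a kinase of the RNA polymerase II tail, fell from 198 ± 29.0 to 53.8 ± 3.59 CPM (SD, n = 2 each), an edgeR quasi-likelihood FDR of 5.38e-06. PPM1G, a phosphatase that acts on spliceosome assembly, fell from 316 ± 5.06 to 94.9 ± 0.190 CPM with an FDR of 2.21e-06 by the same edgeR test. CDK11B had a log2 fold change of 1.32 and CDK11A of 2.78, but these genes are near-identical copies and fragments shared between them were not counted, so both are uncertain.

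Of 13 genes of the U1 snRNP and of 5′ splice site recognition, 2 were called higher, none lower and 11 were not called. Their median was 0.30, and the called share was 15.4%, beside 42.4% of all genes tested. The U1 protein genes SNRNP70, SNRPA and SNRPC, to whose particle the LUC7-like proteins bind, had log2 fold changes of 0.57, 0.19 and -0.29 and were not called. SNRNP70 passed the FDR threshold without reaching 2-fold, and SNRPA and SNRPC did not pass it. PRPF40B, a U1-associated gene of low level, stood at 4.69 ± 0.283 CPM with vehicle and 14.6 ± 2.71 CPM with CPI-455 and was called. RBM25, which associates with the U1 snRNP and LUC7L3, rose from 188 ± 23.5 to 1180 ± 157 CPM (SD, n = 2 each), with an FDR of 9.49e-07 by edgeR's quasi-likelihood test.

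SR and SR-related proteins are the class on which the CLK kinases and SRPK1 act. Of 28 such genes, 11 were called higher, 1 lower and 16 were not called, with a median of 0.55. That was 39.3% higher and 3.57% lower, 42.9% in all, beside 21.0%, 21.3% and 42.4% of all genes tested. RSRP1 rose from 15.4 ± 1.61 to 115 ± 13.0 CPM (FDR 9.66e-07) and PNN, which encodes the SR-related protein pinin, from 233 ± 20.5 to 1580 ± 113 CPM (FDR 5.83e-07), both SD over n = 2 and edgeR quasi-likelihood. SRSF8 was the gene called lower, at 2.00-fold, and lost its call under several alternatives, DESeq2 among them. Of 20 genes known for detained introns, 9 were called higher, 1 lower and 10 were not called, with a median of 0.56. HNRNPDL had a log2 fold change of 2.29 (edgeR FDR 7.77e-07). MAT2A, the methionine adenosyltransferase whose last intron is detained when methionine is plentiful, fell from 854 ± 6.12 to 65.3 ± 10.3 CPM (edgeR FDR 3.72e-07, n = 2).

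**Figure D5:**
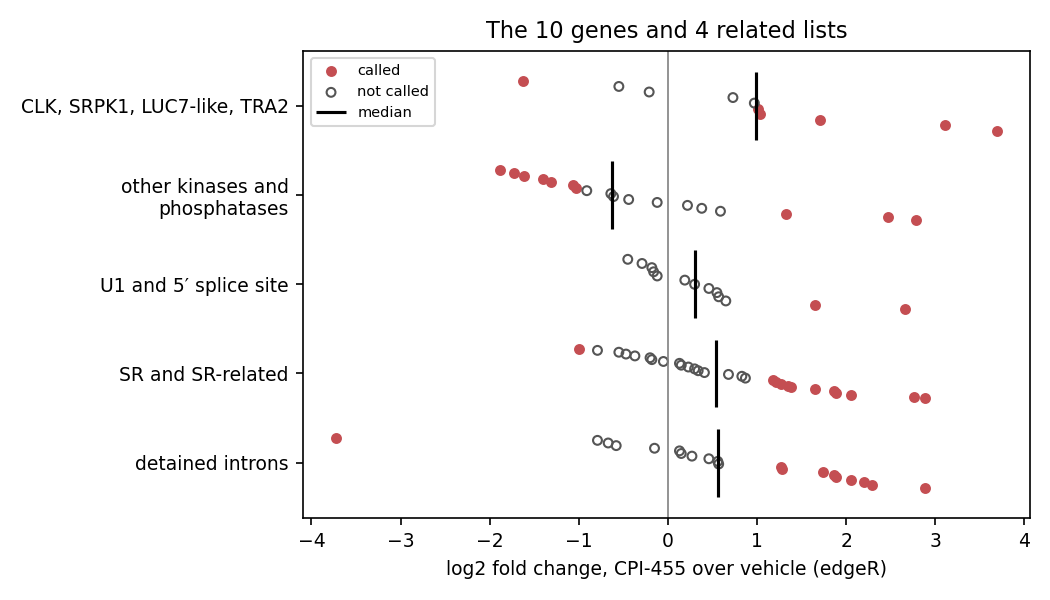
log2 fold change (CPI-455 over vehicle) of the 10 genes and of the genes of 4 related lists, with called genes filled in red, other genes open, and a bar at each list's median. The kinase and phosphatase list has its median at -0.63, the other 3 lists between 0.30 and 0.56 and the 10 genes at 0.99, and the detained intron list reaches down to MAT2A at -3.72.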

How the data were processed

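RNA-seq of 4 LNCaP libraries was analysed, 2 per group, with treatments and replicates taken from the sample labels. Per the labels, the file headers and the methods, the authors used Trim Galore, then STAR on GRCh38, then featureCounts v1.5.0-p1 with the exons of Ensembl release 83. These deposited counts of fragments per gene are raw, not normalized. Counting ignored strand and dropped fragments that aligned to several places or touched several genes.

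Counts of all 60675 genes were fitted with edgeR 4.0.16 (R 4.3.3), with TMM, filterByExpr at a minimum of 10 counts and glmQLFit and glmQLFTest without covariates, which left 17600 genes and all 10 members. Genes were called at a Benjamini-Hochberg FDR below 0.05 and at least 2-fold. Standard errors are the log2 fold change divided by the root of the F statistic. The fit was tested on simulated counts in which few genes changed, which does not test the scaling of these data. FPKM is CPM per kilobase of counted exon. Symbols, matched for 56558 genes, canonical exons and splice sites come from GENCODE release 44, whose build is the one of the files. Proteins were not analysed here.

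The members and lists were chosen with earlier results of these data known. Named genes are the 10 members and, from each other list, up to 2 called genes in each direction with the largest change at a mean log2 CPM of at least 4, with SRPK2 and SRPK3. SNRNP70, SNRPA, SNRPC, PRPF40B, CDK11A and the overlapping gene EDC3 were named after their values were seen.

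Depth is given in the report, and the smaller CPI-455 libraries carry more counting error. Alternatives were DESeq2 1.42.0 and its size factors, upper-quartile scaling, library totals, TMM without mitochondrial genes and MALAT1, other filters, a replicate block, a length and GC trend (mgcv 1.9.3), each library left out, and calls without a minimum fold.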

Additional observations from a re-analysis of the deposited data

How the results depend on the processing

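Under 14 alternative fits, 138 of 140 fold changes of the 10 genes kept their sign, and the 2 exceptions were LUC7L2 with the length and GC trend removed, at 0.14 without and 0.13 with the replicate block. Of the 10 genes, 4 to 7 were called under every alternative with the 2-fold minimum, and 9 without it, beside 6 in the main analysis. The lowest number, 4, came from library totals, from no filter on low counts and from leaving out vehicle replicate 2 (CLK2 0.91 and CLK4 0.83), each of which left 3 called higher. Leaving out each library gave 4 to 7. With the length and GC trend removed 7 were called, CLK1 (1.08) and TRA2A (1.20) with a call gained and CLK2 (0.85) with one lost. Library totals moved the median of all genes tested by -0.19, no filter by -0.15 and upper-quartile scaling by 0.17 on the log2 scale, more than the distance of CLK2, CLK4 and TRA2A from the 2-fold line. Without a minimum fold change, the called genes numbered 7 of the U1 list, 21 of the SR list and 16 of the detained intron list, beside 2, 12 and 10 with it, and 11010 of all genes beside 7454. Leaving out each library gave 5577 to 8596 genes called, with the lone library of a group assumed to vary like the other group. The labels number the replicates alike in both groups, but deviations of same-numbered libraries correlated at 0.028 over 17600 genes and at 0.125 over 9073 genes whose mean log2 CPM reached 4, and nothing in the labels says that a number marks a shared culture or day. With 2 libraries a group they were taken to share only a number. The replicate block gave 7167 genes called and 6 of the 10 genes, and moved no count of a list by over 1.5 times. Counting error is largest for the lowest counts, 295 for LUC7L2 and 309 for CLK4, both in CPI-455 replicate 2.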
